A study of Homo sapiens with 8 samples.

Results

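The 10 genes described here encode S100 proteins that keratinocytes of the epidermis express: S100A2, S100A6, S100A7, S100A8, S100A9, S100A10, S100A11, S100A14, S100A16 and S100P. They were selected by gene symbol and are 10 of 61806 genes in the count table. mRNA was sequenced from N/TERT-1 cells, a wild-type line of immortalized human epidermal keratinocytes, in 4 libraries of ethanol-treated (control) cells and 4 libraries of cells treated with O/A. O/A is the combination of 10 µM oligomycin, an inhibitor of the mitochondrial ATP synthase, and 4 µM antimycin A, an inhibitor of complex III, given for 4 hours. Both conditions were grown in the same serum-free keratinocyte medium with epidermal growth factor and bovine pituitary extract, and all libraries come from the 1 cell line, so the comparison asks how the mRNA of these genes stood after a few hours of mitochondrial inhibition in this line.

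S100 proteins are small calcium-binding proteins of the EF-hand type that mostly work as dimers. Binding of calcium exposes a surface that grips partner proteins, among them the annexins, which bind membranes. Most S100 genes lie side by side on chromosome 1 in the epidermal differentiation complex, the region that also holds the genes of the cornified envelope. Some S100 proteins stay inside the cell. Others are released by stressed or inflamed keratinocytes, where they bind metals that microbes need or act on receptors such as RAGE, encoded by AGER.

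The libraries held 17210404 to 20999927 counts with ethanol and 17689760 to 19263046 with O/A. The counts were tested with edgeR's quasi-likelihood test and adjusted by the Benjamini-Hochberg method over 14893 genes, and a gene was called upregulated or downregulated when its adjusted p was at most 0.05 and its log2(FC), O/A over ethanol, was beyond 0.25 in either direction. By this rule 34.7% of all tested genes were called, 15.8% upregulated and 18.9% downregulated. Levels are given as FPKM, the count of a gene set against its exonic length and the total of its library, which allows genes of different length to be compared. The labels state separate biological replicates but name no batch, so no value within a batch can be given. All 14 keratinocyte markers examined were expressed, with a summed level of 30110 to 31220 CPM, the counts scaled to the library total, with ethanol and 28840 to 29620 with O/A. Of these markers DSG3 was upregulated and KRT5 and SFN were downregulated, and the other 11 were not called. The call of KRT5 was lost under quantile normalization, at -0.199. Markers of myeloid cells, which also make S100A8 and S100A9, summed to 2.34 to 4.05 CPM with ethanol and 4.20 to 4.96 with O/A. Of 13 myeloid markers 3 could be tested, and CD68 and ITGAM were upregulated from low counts. PTPRC, a marker of white blood cells, had at most 1 count in any library and CD207 had none. The markers of melanocytes summed to 9.03 to 11.04 CPM with ethanol and 8.37 to 10.3 with O/A, those of fibroblasts to 21.7 to 26.7 and 21.8 to 24.0, and those of endothelial cells to less than 1 CPM in every library. Bulk RNA cannot tell fewer cells of a kind from less RNA per cell.

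Sequence just upstream of the start site is shown first for the members that carry a TATA box, the element that places the start of transcription. They are S100P, the upregulated member, and the 3 antimicrobial members. The promoter windows are those of RefSeq (GRCh38.p14), from 250 bases before to 50 bases after each start, and all 10 members were matched. A member with several starts is counted if a motif stands in any of its windows, while the share over all genes counts single windows. Such counts and shares are thus not in the same unit. The letters TATAAA, searched on both strands, stood in a window of 4 of the 10 members and in 11.5% of 35116 windows of all genes. In S100A7 they began 28 bases before the start, in S100A8 and S100A9 29 bases, and in S100P 28 bases. In the 30 bases shown for each, 5′ to 3′ on the strand of the gene, capitals mark the TATA box.
S100A7 (chr1:153460662-153460691, minus strand): caggctgagcctTATAAAggactgctcttt
S100A8 (chr1:153391085-153391114, minus strand): aagcctaaccgcTATAAAaaggagctgcct
S100A9 (chr1:153357813-153357842, plus strand): tcaggagctgccTATAAAtgccgagcctgc
S100P (chr4:6693838-6693867, plus strand): atgaggctgcctTATAAAgcaccaagaggc
The same letters also stood 29 bases before a RefSeq start of S100A13, an S100 gene outside the 10.

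Other short motifs were rarer among the members. S100A2 and S100P are shown because they are the 2 members called by the test. The letters TGANTCA are bound by AP-1, the dimer of Jun and Fos proteins. Among the members they were found in S100A2 alone, 52 bases before a RefSeq start of the gene, and they stood in 7.71% of all windows. Outside the members they also stood 225 bases before the start of S100A3. The letters TGATGNAA, part of the composite element that ATF4 and C/EBP proteins bind, were found in S100P alone, on the opposite strand 123 bases before the start, and in 3.62% of all windows. The letters CCAAT were found in S100A8 and S100A16 and in 34.6% of all windows. In the S100A2 sequence capitals mark the AP-1 letters, and in the S100P sequence the ATF4 letters as read on the opposite strand.
S100A2 (chr1:153565879-153565908, minus strand): aggagtgggctgTGACTCAcaggcatgtca
S100P (chr4:6693743-6693772, plus strand): cacaacgatgcaTTTCATCAgaactgagca
These matches describe the letters only, and binding was not measured.

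Together the 10 genes made up a sizeable share of the summed FPKM, which is set against gene length. Of all counts in a library, the 10 genes held 0.44% to 0.50%. They held 1.78% ± 0.048 (SD, n = 4) of all FPKM with ethanol and 1.68% ± 0.065 (n = 4) with O/A, and their summed FPKM was 4554 ± 106 and 4319 ± 151. Ranked by mean FPKM over all libraries, S100A11 was 20th, S100A10 26th, S100A2 27th, S100A14 38th and S100A6 42nd among all genes. S100P, the lowest, was ranked 3286th, while 11587 genes had a mean of at least 1 FPKM.

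**Figure D1:**
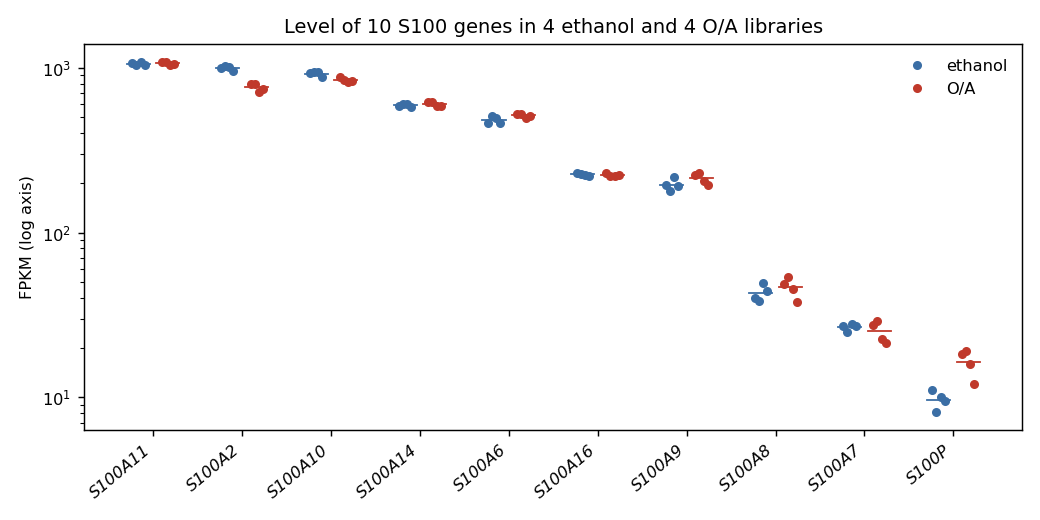
FPKM on a log axis for each of the 10 S100 genes in 4 ethanol (blue) and 4 O/A (red) libraries; points are libraries and lines are means. The genes run from 1057 FPKM for S100A11 to 9.61 for S100P with ethanol, and on this scale the 2 conditions separate for S100A2 and S100P.

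The order of the levels with ethanol was S100A11, S100A2, S100A10, S100A14, S100A6, S100A16, S100A9, S100A8, S100A7 and S100P, and the ranges of neighbours in this order did not overlap. With O/A, S100A2 and S100A10 changed places. S100A16 and S100A9 then overlapped, at 220.76 to 231.0 and 194.74 to 229.77 FPKM, and no other neighbours did. S100A2 made up 21.9% of the summed FPKM of the 10 genes with ethanol and 17.7% with O/A, whereas S100P went from 0.211% to 0.376%.

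All 10 genes passed the filter on low counts. S100P was upregulated, S100A2 was downregulated, and the other 8 were not called. Thus 2 of 10 were called, against 34.7% of all genes, and 5 of 10 had an adjusted p of at most 0.05 whatever the fold, against 53.7%. The median log2(FC) of the 10 was 0.06, and that of all genes was -0.0004. The 95% interval of the log2(FC) lay wholly within the threshold of 0.25 for 6 genes, S100A6, S100A7, S100A10, S100A11, S100A14 and S100A16. It reached past the threshold for S100A8 and S100A9.

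**Figure D2:**
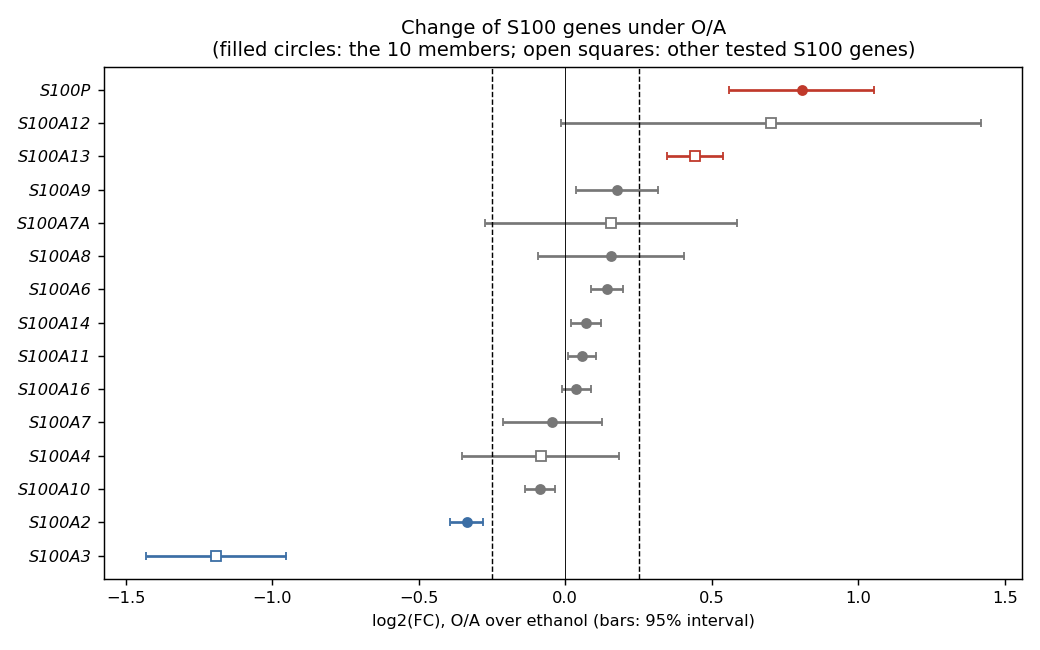
log2(FC), O/A over ethanol, with 95% intervals for the 10 members (filled circles) and the 5 other tested S100 genes (open squares); dashed lines mark 0.25 in either direction, red is upregulated, blue is downregulated and grey is not called. S100P and S100A13 were called to the right and S100A2 and S100A3 to the left of the threshold, and S100A12, at 0.70 with a wide interval, was not called.

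S100A2 is a nuclear and cytosolic S100 protein of basal keratinocytes whose gene is a target of p63. Its gene lies at chr1:153561108-153567890 (GRCh38, minus strand). Its level in ethanol replicates 1 to 4 was 993.64, 1022.97, 1010.02 and 963.2 FPKM, and in O/A replicates 1 to 4 it was 799.54, 798.58, 715.26 and 749.99 FPKM. All O/A libraries were below all ethanol libraries. The mean fell from 997.5 ± 25.8 to 765.8 ± 40.9 FPKM (SD, n = 4 each), with a log2(FC) of -0.34 (SE 0.03, edgeR adjusted p = 3.182e-12). In an exact permutation test of the 4 libraries against 4, two-sided, p was 0.0286, the smallest this design allows. The gene held 20553 to 31271 counts per library, so that counting error was below 1% of the level.

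S100P, first found in placenta, binds ezrin and RAGE, and it is the 1 member that does not lie on chromosome 1. Its gene is at chr4:6693878-6697170 (plus strand). In ethanol replicates 1 to 4 it stood at 10.97, 8.09, 9.99 and 9.4 FPKM, and in O/A replicates 1 to 4 at 18.24, 18.96, 15.98 and 11.98 FPKM. The conditions did not overlap, although O/A replicate 4 came close to ethanol replicate 1. The mean rose from 9.61 ± 1.20 to 16.3 ± 3.14 FPKM (SD, n = 4 each), with a log2(FC) of 0.81 (SE 0.13, 95% interval 0.56 to 1.05, edgeR adjusted p = 5.735e-07, exact permutation p = 0.0286). S100P rested on 67 to 95 counts with ethanol and 100 to 168 with O/A. Counting alone gives a coefficient of variation of 10.9% with ethanol and 8.41% with O/A at these counts, and the measured values were 12.5% and 19.3%. Without O/A replicate 4 the log2(FC) was 0.93.

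Among 11646 genes, the 3 whose levels followed S100P most closely over the 8 libraries were C11orf54 (Pearson's r = 0.993), A2ML1, a protease inhibitor of the upper epidermis (r = 0.989), and ADGRE2, an adhesion receptor (r = 0.987). These correlations describe 8 points that share the treatment and the libraries. C11orf54 had a log2(FC) of 0.33 and ADGRE2 of 0.52, and both were upregulated, although C11orf54 was not called on log2(FPKM + 1), at 0.144. A2ML1, at 24.65 ± 0.65 FPKM with ethanol and 26.96 ± 1.55 with O/A, had a log2(FC) of 0.17 and was not called.

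S100A7, S100A8 and S100A9 are the antimicrobial members that psoriatic keratinocytes make in excess. S100A8 and S100A9 pair to form calprotectin, which withholds zinc and manganese from microbes, and S100A7, or psoriasin, kills Escherichia coli on skin. None of the 3 was called. S100A9 (chr1:153357854-153361023, plus strand) measured 193.62, 178.06, 216.29 and 190.81 FPKM in ethanol replicates 1 to 4 and 223.06, 229.77, 204.57 and 194.74 FPKM in O/A replicates 1 to 4. The conditions overlapped. Its log2(FC) was 0.18 (SE 0.07, 95% interval 0.04 to 0.32, edgeR adjusted p = 0.070). S100A9 was below the fold threshold in each alternative, but its adjusted p was 0.00196 by DESeq2 and 0.000179 by edgeR without ethanol replicate 3.

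S100A8 (chr1:153390032-153391073, minus strand) stood at 40.12, 38.32, 49.63 and 44.09 FPKM with ethanol and at 48.47, 53.99, 45.21 and 37.93 FPKM with O/A. Both the highest and the lowest of the 8 values came from O/A libraries. Its log2(FC) was 0.16 (SE 0.13, edgeR adjusted p = 0.354), and it ranged from 0.086 without O/A replicate 2 to 0.241 without O/A replicate 4, where the edgeR adjusted p was 0.0262. S100A7 (chr1:153457744-153460651, minus strand) stood at 26.98, 24.82, 27.62 and 27.14 FPKM with ethanol and at 27.45, 28.98, 22.54 and 21.24 FPKM with O/A. Again the O/A libraries spread to both sides of the ethanol libraries. Its log2(FC) was -0.04 (SE 0.09, edgeR adjusted p = 0.697), and the sign turned to 0.027 without O/A replicate 4.

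S100A7, S100A8, S100A9 and S100P had the same order of O/A libraries by FPKM: replicate 2 was the highest, then replicates 1, 3 and 4. S100A14, which has no TATA box in its window, had that order too. Ethanol replicate 2 was the lowest of its condition for S100A7, S100A8, S100A9 and S100P, but the highest for S100A14. The log2 deviations from the condition means, on the TMM-scaled CPM, were correlated over the 8 libraries with Pearson's r of 0.922 for S100A8 and S100A9, 0.863 for S100A7 and S100P, 0.838 for S100A7 and S100A8, 0.832 for S100A7 and S100A9, 0.793 for S100A9 and S100P, and 0.768 for S100A8 and S100P. Pairs outside these 4 genes reached similar values, with 0.903 for S100A2 and S100A14, 0.802 for S100A2 and S100A10 and 0.782 for S100A10 and S100A11, as did pairs across the groups, with 0.751 for S100A9 and S100A11 and 0.722 for S100A7 and S100A11. The correlation was thus not particular to the 4 genes. These values are a description of 8 libraries, chosen after the values were seen. Other cornification genes of the same chromosome region summed to 90.4 CPM in ethanol replicate 2, the lowest of that condition, which spanned up to 115.0, and to 103.3 in O/A replicate 4, the lowest of a condition that spanned up to 123.6. Whether the state of differentiation of the cultures had a part in the shared order was not tested.

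The other 6 members are abundant S100 proteins of the cytosol and membrane, and their replicates lay close together, with coefficients of variation from 1.85% to 5.34%. Among them S100A2 was described above. S100A10, or p11, forms a tetramer with annexin A2 at the plasma membrane (chr1:151982915-151993859, minus strand). It stood at 930.94, 944.75, 944.77 and 880.11 FPKM with ethanol and at 882.08, 845.91, 819.47 and 832.06 FPKM with O/A. O/A replicate 1 alone reached into the range of the ethanol libraries. The log2(FC) was -0.08 (SE 0.03, edgeR adjusted p = 0.00507), within the threshold, and under quantile normalization it was -0.206.

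S100A6, or calcyclin, binds annexin A11 and the calcyclin-binding protein (chr1:153534599-153536244, minus strand). It stood at 464.65, 506.91, 494.22 and 460.6 FPKM with ethanol and at 528.04, 522.92, 496.41 and 510.87 FPKM with O/A. The conditions overlapped on this scale. Scaled by TMM they did not, at 460.9 ± 20.5 and 508.3 ± 13.1 CPM (SD, n = 4 each). Its log2(FC) was 0.14 (SE 0.03, edgeR adjusted p = 2.389e-05), again within the threshold. Under quantile normalization it was 0.016 (adjusted p = 0.629). On the TMM scale 3 of the 10 members, S100A2, S100A6 and S100P, had conditions that did not overlap, against 47.6% of all genes. S100A6 and S100P were higher in O/A, as were 22.8% of all genes, and S100A2 was lower, as were 24.8%.

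S100A11, or calgizzarin, binds annexin A1 and is built into the cornified envelope (chr1:152032506-152047907, minus strand). Its level was 1068.34, 1044.77, 1080.35 and 1035.88 FPKM with ethanol and 1094.01, 1080.47, 1037.38 and 1049.89 FPKM with O/A. The libraries of the conditions were interleaved, and the log2(FC) was 0.06 (95% interval 0.01 to 0.11, edgeR adjusted p = 0.0521). S100A14 and S100A16, 2 neighbours on the chromosome found in many epithelia, each differed little between conditions. S100A14 (chr1:153614255-153616986, minus strand) went from 593.5 ± 12.4 to 603.6 ± 20.8 FPKM, with a log2(FC) of 0.07 (95% interval 0.02 to 0.12, edgeR adjusted p = 0.0185). S100A16 (chr1:153606886-153613145, minus strand) went from 225.3 ± 4.16 to 224.1 ± 4.80 FPKM, with a log2(FC) of 0.04 (95% interval -0.01 to 0.09, edgeR adjusted p = 0.223). FPKM are not scaled by TMM, whereas the log2(FC) is. On the TMM scale S100A16 went from 377.8 ± 7.6 to 387.8 ± 8.5 CPM. The sign of S100A11, S100A14 and S100A16 turned under quantile normalization.

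Genes that overlap the members and copies found by name held few counts of their own. These counts cannot show how many reads were shared, since reads that fit several genes were not examined. A gene on the opposite strand overlapped S100A6, with 0 to 4 counts, and another overlapped S100A11, with 22 to 43 counts. Whether the counting used strand is not given in the sources used here. The 13 named copies of S100A11 held 0.0039% of its counts in all, and the copies found by name for S100A7 and S100A10 held none. S100A7A, a close copy of S100A7, was not among these. It held 24 to 41 counts, against 183 to 277 for S100A7.

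Of 11 other S100 genes 5 could be tested, and S100A3 and S100A13 were called, where 34.7% of all tested genes were. S100A3, a protein of the hair cuticle, fell from 10.1 ± 0.89 to 4.29 ± 0.80 FPKM (SD, n = 4 each), a log2(FC) of -1.19 (SE 0.12, edgeR adjusted p = 5.464e-12). Its libraries held 140 to 195 counts with ethanol and 55 to 86 with O/A. S100A3 lies next to S100A2 and overlaps S100A4 on the same strand, and S100A4 had a log2(FC) of -0.08 (edgeR adjusted p = 0.634). S100A13, which takes part in the release of FGF1 and interleukin-1α without a signal peptide, rose from 14.8 ± 0.81 to 19.5 ± 0.58 FPKM, a log2(FC) of 0.44 (SE 0.05, edgeR adjusted p = 3.743e-11). S100A12, a partner of RAGE made by neutrophils, had 4 to 11 counts with ethanol and 10 to 12 with O/A, where it passed the count filter. Its log2(FC) was 0.70 (SE 0.37, edgeR adjusted p = 0.102), and it was called in 2 of the alternatives, both of them limma on FPKM. S100A7A, a close copy of S100A7, had 24 to 41 counts and a log2(FC) of 0.16 (edgeR adjusted p = 0.579). S100A7L2, S100B and S100G were listed at 0 in all 8 libraries. The proteins in which an S100 domain is fused to a long repeat, such as filaggrin, were at or near 0 counts. Of these 7 genes TCHH alone could be tested, at 15 to 24 counts with ethanol and 6 to 16 with O/A. It passed the count filter through the ethanol libraries, where it was higher. TCHH was downregulated (log2(FC) -0.69, edgeR adjusted p = 0.0462). That call was lost in 9 of the alternatives run, among them DESeq2 (adjusted p = 0.105) and limma on FPKM.

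Along chromosome 1 from S100A10 to S100A13 (chr1:151982915-153631360), 29 genes were tested. Of these 4 were upregulated and 4 downregulated, against 15.8% and 18.9% of all tested genes. S100A2 and S100A3 were adjacent and both downregulated, while their neighbours on either side, S100A4 and an unnamed gene, were not called. Among 30 other cornification genes of this region 11 could be tested. SPRR2D, PRR9 and PGLYRP4 were upregulated and IVL, the gene of involucrin, was downregulated, against the same shares of all genes. The median log2(FC) was 0.29 over the 11. PGLYRP4 held 5 to 12 counts with ethanol and 12 to 19 with O/A. Its call was lost in 9 of the alternatives run, among them DESeq2 (adjusted p = 0.109). That of IVL was lost without ethanol replicate 3, where the log2(FC) was -0.247. SPRR2D, a small proline-rich protein of the envelope, rose from 18.6 ± 2.29 to 30.1 ± 2.48 FPKM (log2(FC) 0.75, edgeR adjusted p = 1.288e-10). PRR9 held 3 to 11 counts with ethanol and 10 to 19 with O/A, and its log2(FC) was 1.20 (edgeR adjusted p = 0.00497). Both PRR9 and PGLYRP4 passed the count filter through the O/A libraries, where they were higher. SPRR2E had a log2(FC) of -0.47 that was not called (edgeR adjusted p = 0.0574) but was called in 5 of the alternatives, and was -0.303 without ethanol replicate 3.

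**Figure D3:**
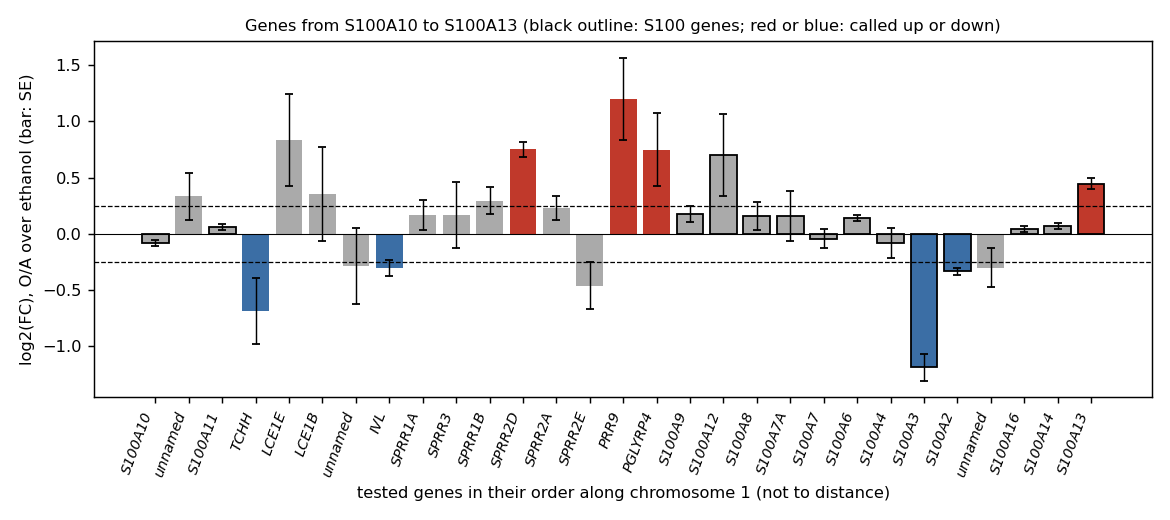
log2(FC), O/A over ethanol, with its SE for the 29 tested genes from S100A10 to S100A13 in their order along chromosome 1; black outlines mark S100 genes, red upregulated, blue downregulated and grey not called. S100A3 at -1.19 and S100A2 at -0.34 stand next to each other, and most other S100 genes lie near 0.

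Of 19 genes for binding partners and receptors of S100 proteins 18 could be tested, and 3 were called, against 34.7% of all genes. Their median log2(FC) was -0.01 over the 18. ANXA1, the partner of S100A11 and an inhibitor of inflammation, rose from 242.9 ± 7.84 to 312.4 ± 5.08 FPKM (log2(FC) 0.41, SE 0.03, edgeR adjusted p = 8.87e-20). ANXA5, another annexin, had a log2(FC) of 0.26 (edgeR adjusted p = 4.233e-12), near the threshold, and its call was lost in 4 of the alternatives. MCAM, a receptor for S100A8 and S100A9, fell from 7.10 ± 0.30 to 5.53 ± 0.14 FPKM (log2(FC) -0.32, edgeR adjusted p = 2.44e-08). AGER, the gene of RAGE, stood at 1.83 ± 0.41 and 1.43 ± 0.19 FPKM and was not called (log2(FC) -0.32, edgeR adjusted p = 0.0857). Single libraries decided this value, which was -0.133 without ethanol replicate 4, and AGER was called at -0.410 without ethanol replicate 1 and at -0.409 without O/A replicate 3. TLR4, a receptor for S100A8 and S100A9, had at most 1 count in any library. ANXA2, the partner of S100A10, had a log2(FC) of -0.001 (edgeR adjusted p = 0.981). Copies of ANXA2 held 4.81% as many counts as the gene itself, which makes its value less certain.

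The members were also set against a partner within each library, as the log2 ratio of their counts, for 4 pairs compared by exact permutation tests, two-sided, with adjustment over the 4. With 4 libraries against 4 the smallest possible p is 0.0286. The ratio of S100A11 to ANXA1 was -0.66 ± 0.02 with ethanol and -1.01 ± 0.04 with O/A (SD, n = 4 each), lower in 4 of 4 O/A libraries (exact permutation p = 0.0286, adjusted p = 0.0571). In FPKM the ratio went from between 4.29 and 4.41 to between 3.29 and 3.50. The ratio of S100A10 to ANXA2 was -2.38 ± 0.02 with ethanol and -2.46 ± 0.05 with O/A, also lower in 4 of 4 O/A libraries (exact permutation p = 0.0286, adjusted p = 0.0571). The conditions came close for this pair, with O/A replicate 1 at -2.401 and ethanol replicate 2 at -2.392. Neither of these 2 ratios passed 0.05 after adjustment. Both already had the smallest possible p, and with only these ratios at it their adjusted p could not be lower than 0.0571. The adjusted test therefore cannot tell how strong these differences are. S100A8 to S100A9, the pair of calprotectin, differed by -0.03 between conditions (exact permutation p = 0.743). S100A6 to ANXA11 differed by 0.13 (exact permutation p = 0.0857, adjusted p = 0.114).

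Other alarmins and antimicrobial genes of keratinocytes, the functional company of S100A7, S100A8 and S100A9, were mostly called. Of 19 such genes 13 could be tested, and 10 were upregulated and 0 downregulated, against 15.8% upregulated among all genes, with a median log2(FC) of 0.76. This list was chosen with earlier results of these data known, so its count is a description and not an independent test. The summed level of these genes was 560 to 607 CPM with ethanol and 1723 to 1846 CPM with O/A, and most of it came from IL1A and IL1B. IL1A held 3851 to 5079 counts per library with ethanol and 15932 to 17035 with O/A. IL1B held 3503 to 4693 and 11524 to 12579. The sum thus says little about the less abundant genes of the list. IL1A rose from 113.7 ± 4.77 to 441.9 ± 17.01 FPKM (SD, n = 4 each), a log2(FC) of 2.00 (edgeR adjusted p = 1.757e-36). IL1B rose by 1.67 on the log2 scale, CXCL8, a neutrophil chemokine, by 2.44 and CCL20 by 2.61. RNASE7, an antimicrobial ribonuclease of skin, rose from 12.2 ± 1.20 to 30.6 ± 1.71 FPKM, a log2(FC) of 1.37 (edgeR adjusted p = 7.559e-25). PI3, the gene of elafin, was not called, with a log2(FC) of -0.08 (edgeR adjusted p = 0.283).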

How the data were processed

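mRNA from 8 libraries of N/TERT-1 cells was sequenced in paired ends after oligo(dT) selection. Reads were aligned by the authors with HISAT2 2.0.1 to GRCh38.p13 and counted with HTSeq 0.6.1, and the deposited counts are not normalized. The FPKM values deposited by the authors are the counts divided by exonic size and library total, to within 0.005. The strand setting and annotation release are not given in the sources used here. The authors' DESeq2 comparison table was deposited with their log2 fold changes, standard errors, mean normalized signal, fold change ratios, Wald score and p-values, and was not used here.

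Conditions and replicate numbers came from the labels, and dose and time from the methods of the study. The members and gene lists were chosen with earlier results of these data known. Counts were scaled by TMM and fitted with edgeR 4.0.16 in R 4.3.3 by the robust quasi-likelihood test, where a gene needed 10 counts or more in 4 libraries or more. The 95% intervals are the log2 fold change ± 1.96 SE. Ratios within a library used the counts plus 0.5. Genes named are all members and ratio partners, the tested gene with the highest and the lowest log2 fold change of each list with at least 1 FPKM in a condition, list genes called beyond a log2 fold change of 1, and the 3 genes most like the called member with the largest change. S100A13, ANXA5, MCAM, IVL, PGLYRP4, TCHH, DSG3, KRT5, SFN, CD68, ITGAM and TLR4 were named after their values were seen. The fit was tested on simulated data. Coordinates are those of the deposited table and were the same in GENCODE for the 10 members. The alternatives were DESeq2 1.42.0, limma 3.58.1 on log2(FPKM + 0.1) and log2(FPKM + 1), all genes unfiltered, genes with a mean of 5 FPKM or more, other scalings, other thresholds, the replicate number as a block and each library left out. Total counts were 17210404 to 20999927. Coefficients of variation from counting cover counting error only.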

Additional observations from a re-analysis of the deposited data

Results flagged for a closer look

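Of 80 groups of 4 libraries examined, 6 held a library that stood apart from the other 3 by Dixon's criterion, and 4.0 would be flagged by chance at this level. S100A7 in ethanol replicate 2 was at 11.89 TMM-scaled CPM, and the other ethanol libraries were at 12.98 to 13.16. S100A10 in ethanol replicate 4 was at 879.3, below the 932.7 to 942.3 of the others. DSG3 in ethanol replicate 2 was at 277.8, below 293.4 to 295.6. IL1B in O/A replicate 2 was at 622.4, below 662.8 to 667.0. SPRR2E in ethanol replicate 3 was at 2.62, above 1.72 to 1.85. The log2 ratio of S100A6 to ANXA11 in O/A replicate 3 was 1.551, below 1.713 to 1.743.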

How the results depend on the processing

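S100A2 and S100P kept their call and direction in all 16 alternatives run for them, and with each library left out in turn S100A2 ranged from -0.352 to -0.299 and S100P from 0.736 to 0.926 on the log2 scale. The 2 calls among the 10 members stayed at 2 with any 1 library left out (2 to 2), became 5 with the adjusted p alone and 0 with an absolute log2 fold change above 1. Over all genes the 5165 calls became 2183 with a mean FPKM of at least 5, a setting that tests fewer genes, 7999 with the adjusted p alone and 797 with an absolute log2 fold change above 1, and they ranged from 4945 to 5071 with 1 library left out. Members near 0 changed sign. Under quantile normalization S100A7 was at 0.022, S100A11 at -0.060, S100A14 at -0.050 and S100A16 at -0.077, ANXA11 at -0.047 and ANXA2 at 0.048. S100A16 was at -0.0079 on log2(FPKM + 0.1) and -0.0078 on log2(FPKM + 1), and ANXA11 at -0.030 and -0.028. ANXA2 was at 0.0064 with DESeq2 and 0.0064 with median-ratio scaling. With 1 library left out, S100A7 ranged from -0.111 to 0.027, ANXA11 from -0.0071 to 0.040, ANXA2 from -0.016 to 0.020 and the log2 ratio of S100A8 to S100A9 from -0.066 to 0.024. The causes of these changes were not tested. TCHH and PGLYRP4, which rest on few counts, each lost the call in 9 of their alternatives, ANXA5, near the threshold, in 4, and IVL, KRT5 and C11orf54 in 1 each. SPRR2E gained a call in 5, AGER in 2 and S100A12 in 2. Under quantile normalization S100A6 was at 0.016 and S100A10 at -0.206. Same-numbered libraries deviated together with correlations of 0.038, -0.002, -0.021 and 0.064 and best matched their own number for replicates 1 and 4 only, so the numbers were not taken as pairs. A fit with that number as a replicate block called 5160 genes, 5117 of them also called without the block, and the 2 calls among the members stayed at 2. Of the members, S100P and S100A7 had the fewest counts, and S100A12, S100A7A, TCHH, PRR9, PGLYRP4 and SPRR2E had fewer still, which limits what can be seen for them.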
